A study of Mus musculus with 30 samples.

Results

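The genes described here are 46 cell cycle and DNA replication genes, found by symbol among the 55450 genes of the count table from mouse liver. They comprise 19 replication genes, 20 mitosis genes, and 7 cyclins and transcription factors of the cell cycle. All 46 symbols were present. The replication genes are Cdc45, Cdc6, Cdt1, Mcm2, Mcm3, Mcm4, Mcm5, Mcm6, Mcm7, Mcm10, Pcna, Gins1, Gins2, Rrm1, Rrm2, Tyms, Tk1, Uhrf1 and Hells. The mitosis genes are Mki67, Top2a, Ccna2, Ccnb1, Ccnb2, Cdk1, Cdc20, Bub1, Bub1b, Aurka, Aurkb, Plk1, Birc5, Cenpe, Cenpf, Kif11, Kif20a, Prc1, Ect2 and Ube2c. The cyclins and factors are Ccnd1, Ccne1, Ccne2, Foxm1, E2f1, E2f8 and Mybl2. The number with enough reads to be tested between genotypes was 21 of 46 in HFCFD2W and 43 of 46 in each of the later experiments. The 30 livers came from male mice on a diet rich in fat, cholesterol and fructose (HFCFD), in 3 experiments with 5 Cebpa fl/fl control mice and 5 mice lacking hepatocyte Cebpa in each. In HFCFD2W, the diet was given for 2 weeks and the knockout was constitutive (Cebpa ΔHep, Albumin-cre). In HFCFD8W+T10D and HFCFD12W+T10W, the knockout was inducible (Cebpa ΔHep,ERT2, Albumin-ERT2-cre), the label gives 8 or 12 weeks of diet, and tamoxifen was given for 10 days or 10 weeks. The HFCFD12W+T10W mice had 22 weeks of diet in all, and whether the 10 days were part of the 8 weeks is not given. Control mice carry the Cebpa fl/fl alleles without Cre, and their labels give the same diet and tamoxifen as those of the knockouts. The mice were on a C57BL/6N background, and their ages are not given. The series calls the 3 experiments batches, so that diet time, tamoxifen and Cre line cannot be told apart from the batch when experiments are compared.

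Libraries held 7996123 to 10257347 estimated reads on genes. Levels are given as CPM, reads scaled to library size and composition over all 30 libraries, and suit comparison of 1 gene between mice. TPM, which also accounts for transcript length, was used to compare genes. A gene was called when the Benjamini-Hochberg adjusted p of edgeR's quasi-likelihood test, over all genes tested in that comparison, was under 0.05. Cebpa itself fell by 5.23 on the log2 scale in HFCFD2W, by 3.04 in HFCFD8W+T10D and by 2.38 in HFCFD12W+T10W, with no overlap between genotypes. In whole liver, a change in the number of cells of a type and a change in RNA per cell cannot be told apart, and this holds for every difference given here.

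Hepatocytes of the adult liver are mostly quiescent and re-enter the cell cycle after injury or loss of tissue. Cyclin D and its kinases phosphorylate the retinoblastoma protein family, which releases E2F factors to switch on the genes of DNA replication. Genes of the G2 phase and mitosis are switched on later, by complexes holding MYB and FOXM1 at promoters with a CHR element. CEBPA is known as a brake on proliferation in liver and other tissues.

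Promoter sequences of the 2 gene classes are shown because the replication and mitosis genes are known to be read through different elements. RefSeq promoters (GRCm38.p6, 250 bases before to 50 after the start) were found for 37 of the 46 genes, by symbol. The search covered both strands. It used an E2F site (TTTCCCGC, TTTCGCGC, TTTGCCGC or TTTGGCGC), the CHR element (TTTGAA or TTCGAA), the CCAAT box (CCAAT) and a C/EBP site (TTGCNNAA). The E2F site was present in 8 of 16 replication genes with a promoter and in 1 of 17 mitosis genes (5.88%), against 2.6% of all 27025 genes. That mitosis gene was Cdk1. The CHR element was present in 3 of 16 replication genes (18.8%) and in 14 of 17 mitosis genes (82.4%), against 21.7% of all genes. The CCAAT box was present in 11 of 16 replication genes and 16 of 17 mitosis genes, against 41.1% of all genes. The C/EBP site was present in 2 of 16 replication genes (Mcm3 and Pcna) and in 0 of 17 mitosis genes, against 12.2% of all genes. Of the 4 cyclins and factors with a promoter, 1 held a CHR element (E2f8) and 0 held an E2F site. Such matches describe the letters and do not show that a factor binds.

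**Figure D1:**
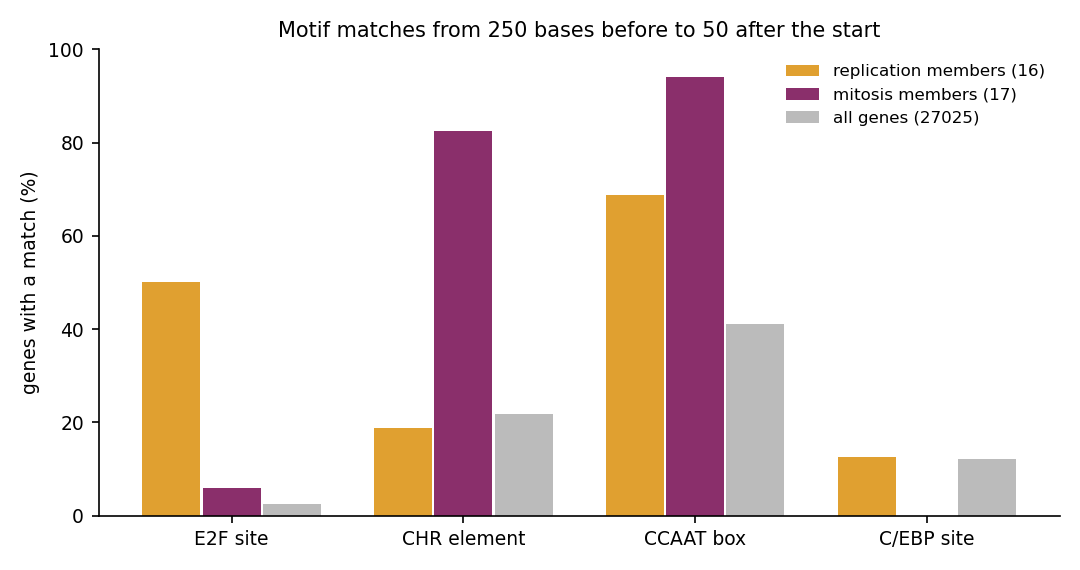
Share of genes (vertical axis, %) with at least 1 match to each motif (horizontal axis) in the promoter window, for 16 replication genes, 17 mitosis genes and all 27025 genes with a RefSeq promoter. The E2F site is most frequent in the replication genes (8 of 16) and the CHR element in the mitosis genes (82.4%).

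The promoters of Mcm6 at chr1:128359656-128359955 (minus strand) and Mcm5 at chr8:75109259-75109558 (plus strand), which encode subunits of the replicative helicase, follow with E2F sites in capitals. The 2 matches on opposite strands overlap in both of these promoters, and Mcm6 holds 1 more.
Mcm6 promoter: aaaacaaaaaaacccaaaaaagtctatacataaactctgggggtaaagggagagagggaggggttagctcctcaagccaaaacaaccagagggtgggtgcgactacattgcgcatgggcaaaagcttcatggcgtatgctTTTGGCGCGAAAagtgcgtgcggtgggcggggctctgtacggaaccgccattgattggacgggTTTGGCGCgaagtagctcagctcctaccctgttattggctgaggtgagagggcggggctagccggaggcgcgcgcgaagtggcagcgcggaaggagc
Mcm5 promoter: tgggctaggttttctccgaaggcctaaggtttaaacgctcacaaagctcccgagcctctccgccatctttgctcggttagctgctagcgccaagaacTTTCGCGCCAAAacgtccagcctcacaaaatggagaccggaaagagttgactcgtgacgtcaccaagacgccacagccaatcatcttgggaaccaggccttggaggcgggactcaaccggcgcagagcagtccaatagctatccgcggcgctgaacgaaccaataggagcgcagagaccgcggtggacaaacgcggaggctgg

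The promoters of Cdk1 at chr10:69352863-69353162 (minus strand), the kinase that drives entry into mitosis, and Ccnb2 at chr9:70421505-70421804 (minus strand), a cyclin partner of Cdk1, follow with CHR elements in capitals. Each holds 2 matches.
Cdk1 promoter: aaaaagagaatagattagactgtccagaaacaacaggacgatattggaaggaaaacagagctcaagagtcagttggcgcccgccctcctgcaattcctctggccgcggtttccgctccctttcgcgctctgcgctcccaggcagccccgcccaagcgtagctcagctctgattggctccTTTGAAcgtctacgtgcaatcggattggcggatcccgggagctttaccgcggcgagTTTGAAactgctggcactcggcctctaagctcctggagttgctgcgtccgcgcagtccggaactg
Ccnb2 promoter: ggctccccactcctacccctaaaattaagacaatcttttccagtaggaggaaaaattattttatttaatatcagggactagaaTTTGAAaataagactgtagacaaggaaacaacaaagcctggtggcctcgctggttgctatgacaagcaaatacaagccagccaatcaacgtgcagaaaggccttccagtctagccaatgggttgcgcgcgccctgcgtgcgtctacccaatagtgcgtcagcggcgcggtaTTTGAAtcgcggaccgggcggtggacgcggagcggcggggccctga

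The promoter of Mcm10 at chr2:5012742-5013041 (minus strand), a replication initiation factor, is shown because its level moved against that of the other Mcm genes. It holds 0 matches to the E2F and CHR letters, as do those of Pcna, Rrm1, Rrm2, Tyms and Tk1. Of these, Pcna, Rrm1 and Rrm2 rose in HFCFD12W+T10W, so that the lack of matches is not particular to Mcm10. The window ends in the letters TTTGGCG, and a site that crosses its edge would not be counted.
Mcm10 promoter: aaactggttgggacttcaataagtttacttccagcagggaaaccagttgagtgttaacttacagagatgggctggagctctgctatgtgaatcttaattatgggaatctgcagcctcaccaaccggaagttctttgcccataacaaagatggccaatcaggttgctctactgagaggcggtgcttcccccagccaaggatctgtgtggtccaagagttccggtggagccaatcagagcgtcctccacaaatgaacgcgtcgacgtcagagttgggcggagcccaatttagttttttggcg

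The members were low in these livers, which limits the precision of each value. The median count per library was 2 to 45 reads for the mitosis genes and 4 to 362 reads for the replication genes. In control livers of HFCFD2W, median TPM was 17.9 for Pcna (the sliding clamp of DNA polymerases), 12.3 for Tk1 (thymidine kinase) and 7.68 for Tyms (thymidylate synthase). Cdk1 was the highest mitosis gene, at 1.31 TPM, and Mki67 was at 0.07 TPM. Mcm10 stood above all of these, at a median of 47.5 TPM. In that value the assigned transcript length was below the shortest coding Mcm10 transcript, as given further on. The rank may therefore not hold for coding RNA of Mcm10. In knockout livers of HFCFD12W+T10W the order was led by Ccnd1 at 82.8 TPM and Pcna at 56.5 TPM, and Cdk1 was again the highest mitosis gene, at 13.3 TPM.

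Summed over the 20 mitosis genes, the 5 control livers of HFCFD2W held 9.65, 9.20, 8.86, 9.80 and 13.1 CPM, and the 5 knockout livers held 10.9, 11.1, 23, 27.1 and 16.4 CPM. In HFCFD8W+T10D the sums were 48.9, 54.9, 66.6, 18.3 and 55.4 CPM in controls and 111, 155, 105, 69.9 and 148 CPM in knockouts. In HFCFD12W+T10W they were 8.55, 16.2, 10.9, 11.4 and 38.6 CPM in controls and 87.3, 99.5, 63.9, 99.97 and 109.7 CPM in knockouts. The genotypes did not overlap in either tamoxifen experiment, and they overlapped in HFCFD2W. Control mouse 5 of HFCFD12W+T10W lay above the other 4 controls, and control mouse 4 of HFCFD8W+T10D lay below the others.

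The 18 replication genes other than Mcm10 differed less in relative terms. Their summed levels were 93.7 to 117 CPM in controls and 99.9 to 134 CPM in knockouts of HFCFD2W. The range was 124 to 217 CPM in controls and 178 to 299.7 CPM in knockouts of HFCFD8W+T10D, so that the genotypes overlapped. It was 102 to 129 CPM in controls and 148 to 289.6 CPM in knockouts of HFCFD12W+T10W, with no overlap. That depends on leaving out Mcm10, which fell there. With Mcm10 the sums were 142 to 184 CPM in controls and 168 to 301 CPM in knockouts, and the genotypes overlapped. The lowest knockout there was mouse 3, in which 16 of 19 replication genes and 17 of 20 mitosis genes had their lowest value among the 5 knockouts.

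**Figure D2:**
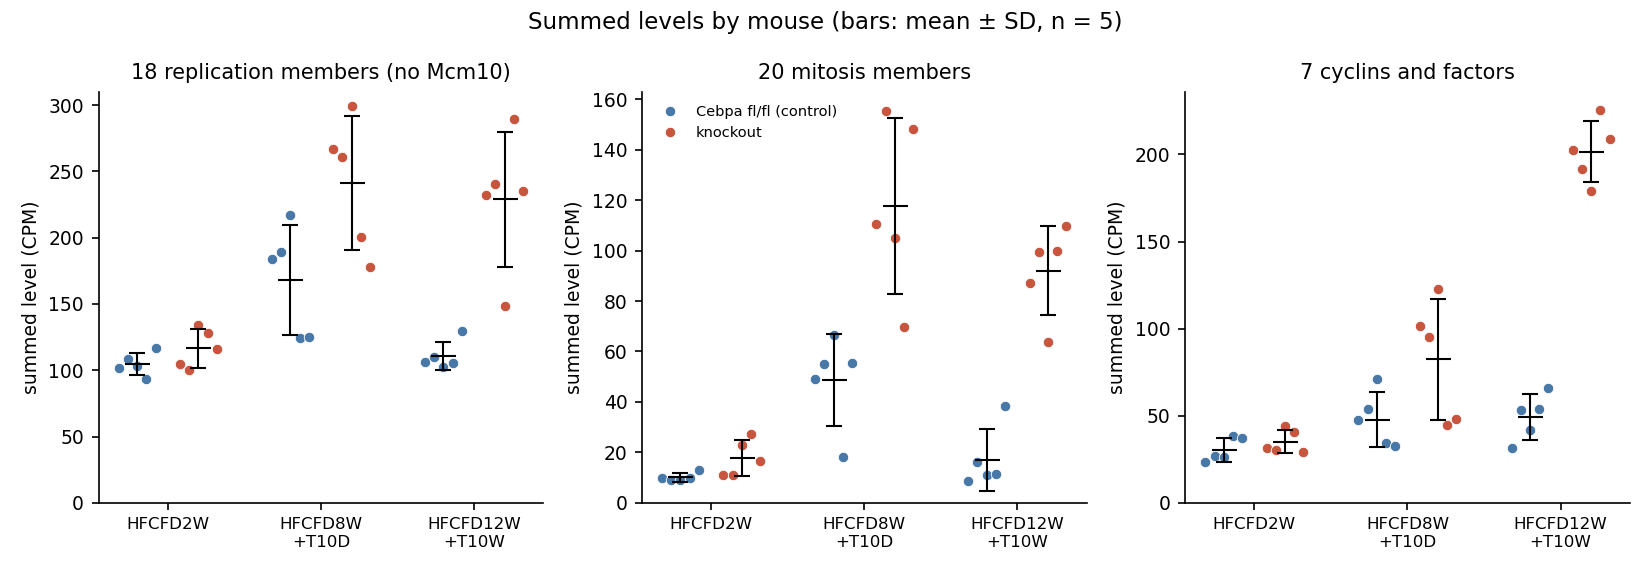
Summed level (CPM, vertical axes) in each liver for the 18 replication genes without Mcm10, the 20 mitosis genes and the 7 cyclins and factors, in the 3 experiments. Points are mice, and bars are the mean ± SD (n = 5). For the mitosis genes the knockout livers of both tamoxifen experiments lie above their controls, and the controls of HFCFD8W+T10D (18.3 to 66.6 CPM) lie above those of HFCFD2W (8.86 to 13.1 CPM).

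In HFCFD2W, 14 replication genes, 2 mitosis genes and 5 cyclins and factors had enough reads to be tested. Of these 21 genes 1 was called higher and 0 lower, where 8.60% of all 11068 genes tested were called higher and 8.09% lower. An unadjusted p under 0.05 was reached by 4 of the 21. The called gene was Top2a, topoisomerase II alpha, which untangles replicated DNA. Top2a was at 1.34, 0.594, 0.466, 0.690 and 0.852 CPM in controls and at 2.13, 1.01, 4.46, 3.07 and 2.95 CPM in knockouts. The lowest knockout lay below the highest control, and the log2 fold change was 1.77 ± 0.40 (SE, adjusted p = 0.010).

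Mki67, the proliferation antigen, had too few reads for the test in HFCFD2W, at 0.414 to 1.17 CPM in controls and 0.947 to 3.96 CPM in knockouts. When no gene was filtered for low counts, Mki67 and Tk1 were called higher as well. The log2 fold changes of the tested replication genes in HFCFD2W ran from -0.22 (Gins1) to 0.53 (Mcm10), and 0 of them passed the test. Mcm2 was at 3.03 to 3.56 CPM in controls and 2.55 to 5.95 CPM in knockouts (0.17 ± 0.24), and Pcna at 23 to 27.5 and 22 to 30.9 CPM (0.02 ± 0.10).

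In HFCFD8W+T10D, 16 of the 20 mitosis genes rose in the knockouts and 0 fell, with 19 tested. Over all 11990 genes tested, 10.3% were called higher and 6.85% lower. The log2 fold changes of the 19 ran from 0.66 (Ect2) to 2.12 (Ube2c), with a median of 1.32 beside 0.01 for all genes. The 3 tested genes that missed the threshold were Ccnb2 (1.01 ± 0.37), Kif11 (1.11 ± 0.36) and Ect2 (0.66 ± 0.33). In 6 of the 16 called genes the genotypes did not overlap, where 668 of the 1231 genes called higher, or 5.57% of all genes tested, were called higher without overlap. With no filter on low counts, 18 of the 20 were called.

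Mki67 was at 7.76, 7.63, 9.62, 3.15 and 9.64 CPM in the controls of HFCFD8W+T10D and at 15.6, 25.7, 14.6, 10.3 and 25 CPM in the knockouts. Every knockout lay above every control, and the log2 fold change was 1.29 ± 0.30 (adjusted p = 0.012). Plk1, a kinase of spindle assembly and mitotic exit, was at 0.811, 0.776, 0.927, 0.102 and 0.984 CPM in controls and at 2.62, 3.13, 2.71, 2.25 and 3.61 CPM in knockouts. The genotypes were again apart, with a log2 fold change of 2.00 ± 0.35 (adjusted p = 0.0025).

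Ccna2, the cyclin of S phase and G2, also rose without overlap, from 1.32 to 4.01 CPM in controls to 4.98 to 11.8 CPM in knockouts (1.55 ± 0.29). So did Bub1b, of the spindle checkpoint (0.508 to 1.85 and 2.73 to 5.43 CPM), and Kif20a, a kinesin of cytokinesis (1.42 to 3.36 and 4.03 to 8.80 CPM). Cdk1 was at 2.03 to 7.76 CPM in controls and 7.24 to 10.8 CPM in knockouts (1.06 ± 0.26), and Ccnb1 (cyclin B1) at 0.203 to 2.95 and 2.85 to 5.98 CPM (1.42 ± 0.41). Ube2c, the ubiquitin-conjugating enzyme of mitotic exit, was at 0.305 to 1.39 and 1.19 to 5.02 CPM (2.12 ± 0.40). These 3 rose with overlapping genotypes. Control mouse 4 was the lowest control in 19 of the 20 mitosis genes, and knockout mouse 4 was the lowest knockout in 18.

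Of the 19 replication genes in HFCFD8W+T10D, 5 rose and 1 fell, with 18 tested. Over all genes tested, 10.3% were called higher and 6.85% lower. The 5 were Mcm2, Mcm4, Rrm1 (ribonucleotide reductase), Uhrf1 (which binds hemimethylated DNA) and Hells (a chromatin remodeler). The median log2 fold change of the 18 was 0.68. Mcm2 was at 5.21, 5.82, 6.60, 3.86 and 3.84 CPM in controls and at 13.7, 13.5, 12.8, 7.12 and 5.41 CPM in knockouts. Mice 1 to 4 of the knockouts lay above every control, and mouse 5 lay among the controls (1.08 ± 0.27, adjusted p = 0.017). Mcm5 was at 3.94 to 11.8 CPM in controls and 7.79 to 25.8 CPM in knockouts (0.91 ± 0.33, adjusted p = 0.073), and Pcna at 23.5 to 44 and 37 to 50.9 CPM (0.41 ± 0.16, adjusted p = 0.11). In the 5 genes that rose the genotypes overlapped, where 5.57% of all genes tested were called higher without overlap.

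The count of called members in HFCFD8W+T10D depended on single mice. It was 23 higher with all mice and 14 without control mouse 1, 4 or 5, 13 without knockout mouse 1, 11 without knockout mouse 2 and 14 without knockout mouse 3. With the spread estimated from all 30 libraries, 35 were called higher.

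In HFCFD12W+T10W, 19 of the 20 mitosis genes rose in the knockouts and 0 fell, with 19 tested. Here 27.4% of all 12463 genes tested were called higher and 23.8% lower. The log2 fold changes ran from 1.73 (Ect2) to 3.00 (Ccnb1), with a median of 2.43 beside 0.01 for all genes. In 17 of the 19 the genotypes did not overlap, where 2436 of the 3411 genes called higher, or 19.5% of all genes tested, were called higher without overlap. With no filter on low counts, Cenpe, a kinesin of the kinetochore, was called as well.

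Mki67 was at 0.951, 2.49, 1.49, 1.95 and 7.17 CPM in the controls of HFCFD12W+T10W and at 12.6, 16.2, 9.71, 17.1 and 16.5 CPM in the knockouts. The genotypes were apart even though control mouse 5 was high, with a log2 fold change of 2.36 ± 0.38 (adjusted p = 2.4e-04). Top2a was at 0.950 to 5.55 CPM in controls and 8.36 to 16.3 CPM in knockouts (2.55 ± 0.36). Cdk1 was at 0.356, 0.793, 0.460, 1.15 and 2.02 CPM in controls and at 6.19, 6.00, 4.39, 8.57 and 8.34 CPM in knockouts, again apart (2.80 ± 0.35, adjusted p = 2.9e-05).

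Ccnb1 was at 0 to 1.41 CPM in controls and 2.79 to 5.26 CPM in knockouts (3.00 ± 0.52). Aurkb, the kinase that corrects chromosome attachment, was at 0.115 to 0.808 and 1.86 to 3.40 CPM (2.92 ± 0.39), and Kif20a at 0.475 to 1.21 and 3.56 to 5.14 CPM (2.55 ± 0.24). Control mouse 5 was the highest control in 18 of the 20 mitosis genes. Without it, the log2 fold change of Mki67 was 3.08. Plk1 had a log2 fold change of 2.43 ± 0.67 with all mice, and as its other 4 controls held 0 to 2 reads each, no fold is given without mouse 5.

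Of the 19 replication genes in HFCFD12W+T10W, 14 rose and 2 fell, with 18 tested and a median log2 fold change of 1.36. Over all genes tested, 27.4% were called higher and 23.8% lower. In 11 of the 14 the genotypes did not overlap, where 19.5% of all genes tested were called higher without overlap. The helicase subunits Mcm2, Mcm3, Mcm4, Mcm5, Mcm6 and Mcm7 rose, all without overlap. Mcm2 was at 2.26, 2.72, 2.87, 2.76 and 4.34 CPM in controls and at 12.1, 15.8, 8.36, 19.3 and 13.9 CPM in knockouts. The lowest knockout lay above the highest control, and the log2 fold change was 2.24 ± 0.23 (adjusted p = 7.8e-06). Mcm5 was at 1.26 to 4.85 CPM in controls and at 7.09 to 22.9 CPM in knockouts (2.49 ± 0.36, adjusted p = 8.8e-05). Mcm6 was at 3.21 to 7.07 and 15.2 to 40.0 CPM (2.48 ± 0.25), and Mcm7 at 8.61 to 10.0 and 11.3 to 19.2 CPM (0.88 ± 0.13).

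Hells had the highest log2 fold change of the tested members in HFCFD12W+T10W, at 0.230 to 0.909 CPM in controls and 2.11 to 9.76 CPM in knockouts (3.64 ± 0.45). Uhrf1 was at 0.344 to 3.74 and 2.70 to 10.0 CPM (2.54 ± 0.49), with overlap. Pcna rose from 23 to 29.2 CPM to 32.3 to 48.1 CPM (0.69 ± 0.11). Of the enzymes that supply nucleotides, Rrm1 and Rrm2 rose (1.05 ± 0.15 and 1.09 ± 0.27), Tyms did not pass the test (0.24 ± 0.13, adjusted p = 0.16), and Tk1 fell. Gins1, of the helicase complex, did not pass either (0.42 ± 0.20).

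**Figure D3:**
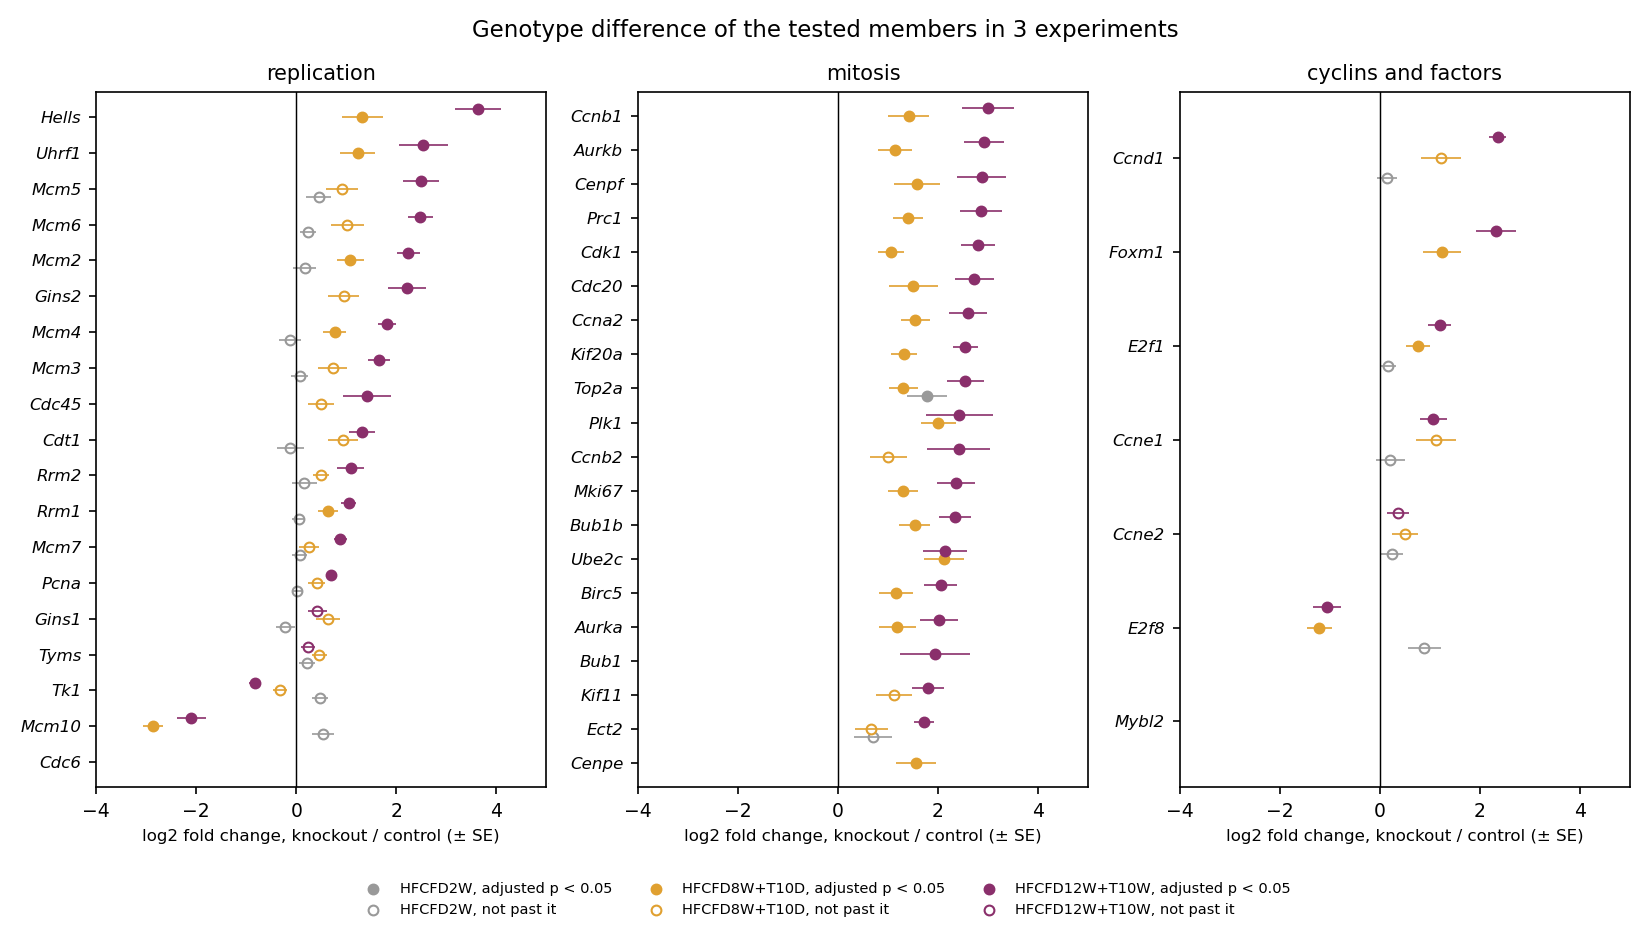
Log2 fold change of knockout over control (horizontal axes, ± SE) for each tested member in the 3 experiments, ordered by HFCFD12W+T10W. Filled points had an adjusted p under 0.05. Cdc6 and Mybl2 had too few reads to be tested in any experiment. The mitosis genes lie to the right of 0 in both tamoxifen experiments (medians 1.32 and 2.43), where Mcm10 and E2f8 lie to the left.

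Among the 7 cyclins and factors, 0 were called in HFCFD2W, 2 rose and 1 fell in HFCFD8W+T10D, and 4 rose and 1 fell in HFCFD12W+T10W. The number tested was 5, 6 and 6, and the shares of all genes called higher and lower were 8.60% and 8.09%, 10.3% and 6.85%, and 27.4% and 23.8%. Ccnd1, cyclin D1, which starts G1 progression, was at 13.4 to 27.5 CPM in controls and 17.6 to 31 CPM in knockouts of HFCFD2W (0.14 ± 0.20). In HFCFD8W+T10D it was at 29.1, 31.7, 37.5, 19.1 and 11.2 CPM in controls and at 78, 70.1, 98.4, 23.2 and 25.9 CPM in knockouts. Mice 1, 2 and 3 of the knockouts were high and mice 4 and 5 lay among the controls, and the difference missed the threshold (1.23 ± 0.41, adjusted p = 0.055). In HFCFD12W+T10W it was at 23.2, 41.6, 30.1, 39.3 and 49.3 CPM in controls and at 185, 174, 166, 203 and 187 CPM in knockouts. All 5 knockouts were high, and the log2 fold change was 2.36 ± 0.17 (adjusted p = 4.0e-07).

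Ccne1, cyclin E1, which acts at the entry to S phase, was at 1.34 to 3.41 CPM in controls and 1.68 to 2.96 CPM in knockouts of HFCFD2W. It was at 0.197 to 1.62 and 1.30 to 3.03 CPM in HFCFD8W+T10D (1.13 ± 0.39, adjusted p = 0.067). It rose in HFCFD12W+T10W, at 0.460 to 1.26 and 1.44 to 2.67 CPM (1.07 ± 0.27). Foxm1, a factor for mitosis genes, rose in both tamoxifen experiments (1.24 ± 0.38 and 2.33 ± 0.40), as did E2f1 (0.77 ± 0.23 and 1.20 ± 0.23). Ccne2 was not called in any experiment. Mybl2 was at 0 to 3 reads in every control library and was not tested.

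Mcm10 and E2f8 fell in both tamoxifen experiments, and Tk1 fell in HFCFD12W+T10W. In HFCFD12W+T10W, 14 of 18 tested replication genes and 4 of 6 tested cyclins and factors rose. In HFCFD8W+T10D, 5 of 18 and 2 of 6 rose. Mcm10 (ENSMUSG00000026669.14, chr2:4989714-5012791) was at 78.7, 59.2, 75.1, 52.3 and 69 CPM in controls of HFCFD2W and at 148, 120.1, 80.8, 65.9 and 68.1 CPM in knockouts. It was at 32.6, 39.6, 49.8, 38.8 and 30.3 CPM in controls of HFCFD8W+T10D and at 4.59, 5.43, 3.47, 7.95 and 4.75 CPM in knockouts. It was at 77.9, 71.6, 39.5, 53.1 and 31.2 CPM in controls of HFCFD12W+T10W and at 13.6, 8.96, 19.9, 11.1 and 8.09 CPM in knockouts. The genotypes overlapped in the first experiment and were apart in the other 2.

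The log2 fold change of Mcm10 was 0.53 ± 0.21 (adjusted p = 0.10) in HFCFD2W. In HFCFD8W+T10D it was -2.86 ± 0.20 (adjusted p = 4.3e-06), against -2.10 ± 0.28 (adjusted p = 6.0e-05) in HFCFD12W+T10W. The transcript length that the quantification assigned to Mcm10, weighted by abundance, was 1343 to 1852 bases over the 30 libraries. The shortest protein-coding Mcm10 transcript of the annotation has 3494 bases. The annotated Mcm10 transcripts shorter than that are of the types retained intron or processed transcript, which are not coding. Mcm10 was the 1 member of 46 whose assigned length was below its shortest coding transcript in every library. No other annotated gene overlaps it. What the shorter assigned length does to the level of Mcm10 was not tested.

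Tk1 was named after its values were seen. It was at 16.5, 19.9, 16.8, 15.3 and 16.9 CPM in controls and at 21.4, 15.8, 31.4, 22.6 and 27.4 CPM in knockouts of HFCFD2W. In HFCFD8W+T10D it was at 19.7 to 32.6 and 15.8 to 23.5 CPM, and the difference missed the threshold (-0.33 ± 0.15, adjusted p = 0.14). In HFCFD12W+T10W it was at 23.5, 18.8, 23.3, 27 and 26.6 CPM in controls and at 13.1, 12.7, 13.7, 14.8 and 11.2 CPM in knockouts, with no overlap (-0.83 ± 0.11, adjusted p = 5.7e-05). Tk1 overlaps Afmid on the other strand, an enzyme of tryptophan breakdown. Afmid was at 69.8 to 99 CPM in controls and 93.5 to 148 CPM in knockouts of HFCFD2W (0.48 ± 0.13). Afmid fell in both tamoxifen experiments (-0.68 ± 0.17 and -1.49 ± 0.14). The library kit keeps strand, and whether the counting used it is not given in the sources used here. The part of Afmid reads in the Tk1 counts was not tested.

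E2f8, an E2F family member that represses E2F targets, was at 1.34, 0.742, 1.40, 1.24 and 1.42 CPM in controls and at 2.37, 3.14, 2.03, 3.07 and 0.806 CPM in knockouts of HFCFD2W (0.89 ± 0.33, adjusted p = 0.084). In HFCFD8W+T10D it was at 7.65, 9.70, 18.4, 8.53 and 14.3 CPM in controls and at 4.87, 4.77, 3.47, 5.10 and 6.93 CPM in knockouts. All knockouts lay below all controls (-1.20 ± 0.25, adjusted p = 0.0073). In HFCFD12W+T10W it was at 2.26 to 5.17 and 0.845 to 2.37 CPM, with overlap (-1.06 ± 0.28, adjusted p = 0.0065). Gm2788, named after its values were seen, overlaps E2f8 on the other strand. Gm2788 did not pass the test in the earlier experiments (-0.52 ± 0.50 at HFCFD2W, -1.28 ± 0.48 at HFCFD8W+T10D), and it fell at HFCFD12W+T10W (-2.08 ± 0.54). In all, 22 of the 46 members overlap another annotated gene, 7 of them on the same strand.

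**Figure D4:**
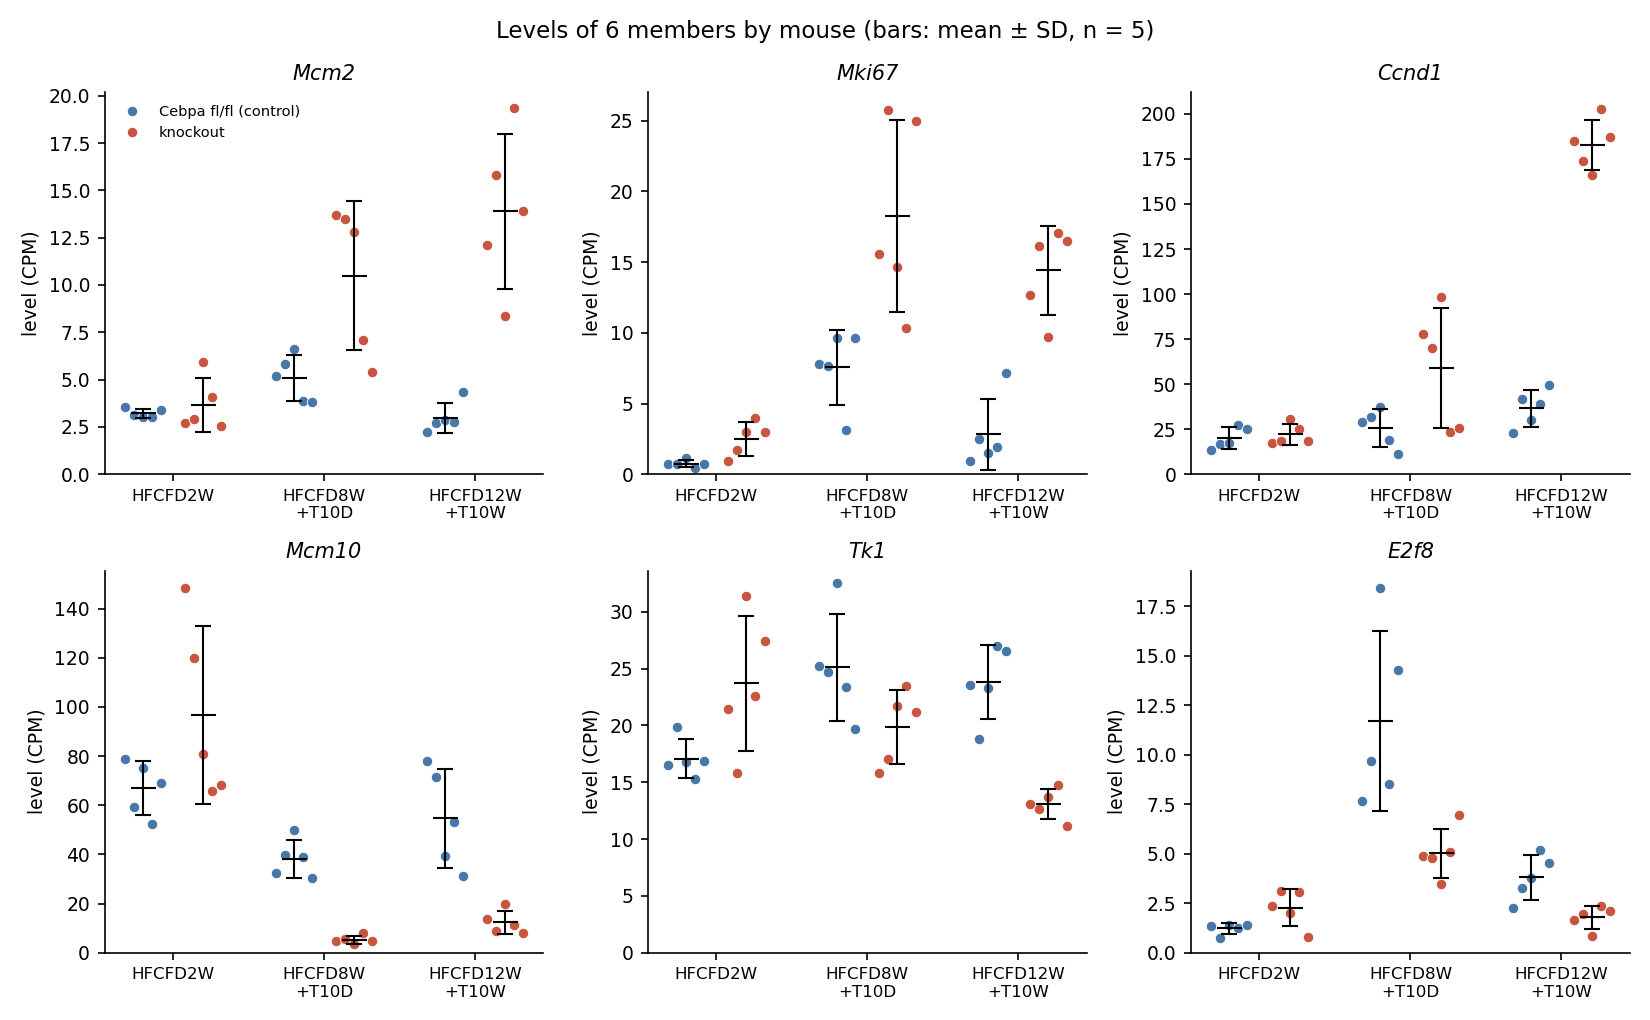
Level (CPM, vertical axes) of Mcm2, Mki67, Ccnd1, Mcm10, Tk1 and E2f8 in each liver by experiment and genotype. Points are mice, and bars are the mean ± SD (n = 5). Ccnd1 reaches 166 to 203 CPM in the knockouts of HFCFD12W+T10W, and Mcm10 stands at 3.47 to 7.95 CPM in the knockouts of HFCFD8W+T10D against 30.3 to 49.8 CPM in their controls.

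Further genes of the same processes, from lists of other members of each process, were counted alike. Of 45 other mitosis genes, 0 of 13 tested were called in HFCFD2W, with 4 at an unadjusted p under 0.05. The number that rose was 19 of 35 in HFCFD8W+T10D (10.3% of all genes tested) and 30 of 34 in HFCFD12W+T10W (27.4%), and 0 fell in either. The low-count filter passes a gene with enough reads in 1 genotype alone and leaves out genes low in both. These shares, and the lack of genes that fell, therefore depend in part on the filter, and no count without it is given for this list. Examples in HFCFD12W+T10W are Ckap2, Hmmr and Pbk, with log2 fold changes of 3.59 ± 0.35, 3.29 ± 0.35 and 3.05 ± 0.55. Their control libraries held at most 5, 6 and 7 reads. Ttk, a kinase of the spindle checkpoint, rose as well, and as each of its control libraries held 2 reads or fewer, no fold is given. Of 38 other replication genes, 0 of 28 rose and 1 fell in HFCFD2W (Rfc5, of the clamp loader, -0.63 ± 0.15), 4 of 32 rose in HFCFD8W+T10D, a share near the 10.3% of all genes, and 23 of 31 rose in HFCFD12W+T10W, beside 27.4%. Pole, the catalytic subunit of polymerase epsilon, rose by 2.01 ± 0.31 there, and Lig1, the ligase that joins Okazaki fragments, by 1.72 ± 0.29. In HFCFD8W+T10D, Lig1 rose by 1.10 ± 0.28.

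Regulators upstream of the members were counted in the same way. Of 19 other D cyclins, CDKs, pocket proteins and related factors, 2 of 18 tested fell in HFCFD2W (8.09% of all genes tested), 2 of 18 rose in HFCFD8W+T10D (10.3%), and 7 of 18 rose (27.4%) and 1 fell (23.8%) in HFCFD12W+T10W. Myc rose in the latter 2 (0.80 ± 0.24 and 1.59 ± 0.24), as did Rbl1, which encodes the pocket protein p107 (0.91 ± 0.22 and 1.30 ± 0.23). E2f2 fell in HFCFD2W (-1.59 ± 0.25) and rose in HFCFD12W+T10W (1.59 ± 0.26). Of 14 CDK inhibitors and brakes, 3 of 9 tested rose and 2 fell in HFCFD2W (8.60% and 8.09% of all genes). In HFCFD8W+T10D 1 of 11 rose (10.3%), and in HFCFD12W+T10W 4 of 11 rose (27.4%). The shares called in these 2 lists were close to those over all genes in HFCFD8W+T10D. The share called lower in the first list in HFCFD2W, and those called higher in both lists in HFCFD12W+T10W, were not far from them either. None of these shares is a result about the lists. Cdkn1a, the CDK inhibitor p21, was at 1.14 to 1.87 CPM in controls and 3.79 to 16.4 CPM in knockouts of HFCFD2W (2.72 ± 0.40). It was not called in HFCFD8W+T10D. In HFCFD12W+T10W, Cdkn1a was at 9.64 to 65.5 and 24.6 to 120.4 CPM, with overlap and just under the threshold (1.39 ± 0.55, adjusted p = 0.049). Gadd45a, of the same list, fell in HFCFD2W, from 1.63 to 5.64 CPM in controls to 0.112 to 0.828 CPM in knockouts (-2.78 ± 0.44). Cdkn1c, the inhibitor p57, rose in both tamoxifen experiments (1.65 ± 0.44 and 1.23 ± 0.25).

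The size of the genotype difference was compared between experiments by interaction terms over 12964 genes. From HFCFD2W to HFCFD8W+T10D the term was called for 0 of 20 mitosis genes, with 1 at an unadjusted p under 0.05. It was higher for 1 replication gene (Gins1, 0.85 ± 0.28) and lower for Mcm10 (-3.41 ± 0.38), Tk1 (-0.81 ± 0.21) and E2f8 (-2.11 ± 0.44), where 4.45% of all genes were called higher and 6.79% lower. From HFCFD8W+T10D to HFCFD12W+T10W it was higher for Mcm2 (1.14 ± 0.36), Mcm4 (1.02 ± 0.30), Mcm5 (1.55 ± 0.48), Mcm6 (1.43 ± 0.41), Hells (2.28 ± 0.62) and Cdk1 (1.72 ± 0.44). It was lower for 0 members, where 4.97% of all genes were called higher and 5.49% lower. These 6 calls became 18 without control mouse 5 of HFCFD12W+T10W and 12 without control mouse 4 of HFCFD8W+T10D. They became 3 without control mouse 3 or knockout mouse 4 of HFCFD8W+T10D.

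From HFCFD2W to HFCFD12W+T10W the term was higher for 11 of 19 replication genes, 5 of 20 mitosis genes, and Ccnd1 and E2f1. It was lower for Mcm10, Tk1 and E2f8, where 13.4% of all genes were called higher and 17.3% lower. The terms were 2.03 ± 0.40 for Mcm2, 2.86 ± 0.56 for Cdk1 and 2.17 ± 0.45 for Ccnd1. These comparisons share libraries with one another and with the genotype comparisons above.

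Levels in control livers differed between experiments too. In controls of HFCFD8W+T10D against those of HFCFD2W, 18 of 20 mitosis genes were higher and 0 lower. Of the 19 replication genes 11 were higher and 2 lower, and of the 6 cyclins and factors tested 2 were higher. Over all genes 22.2% were called higher and 21.5% lower. Mki67 was at 3.15 to 9.64 CPM against 0.414 to 1.17 CPM, with no overlap (3.27 ± 0.49), Rrm2 differed by 1.77 ± 0.26, and E2f8 by 3.23 ± 0.32. The 2 lower genes were Mcm10 (-0.81 ± 0.25) and Gins1 (-0.78 ± 0.21).

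In controls of HFCFD12W+T10W against those of HFCFD8W+T10D, 11 of 20 mitosis genes, 6 of 19 replication genes and E2f8 were lower, and 0 members were higher. Over all genes 6.31% were called higher and 5.12% lower. Cdk1 differed by -2.23 ± 0.35, Mki67 by -1.39 ± 0.38 and Mcm6 by -1.48 ± 0.31. The count of 18 became 28 without control mouse 5 of HFCFD12W+T10W.

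In the induced knockouts of the same 2 experiments, 0 of 20 mitosis genes differed by edgeR's test, with 1 at an unadjusted p under 0.05. Their log2 differences, HFCFD12W+T10W minus HFCFD8W+T10D, ran from -0.68 to -0.08. Higher in HFCFD12W+T10W were Ccnd1 (1.63 ± 0.30), Mcm10 (1.25 ± 0.30) and Mcm4 (0.58 ± 0.19). Lower were Rrm2 (-1.06 ± 0.23), Tyms (-0.63 ± 0.14), Tk1 (-0.60 ± 0.15) and E2f8 (-1.49 ± 0.29). Over all genes 13% were called higher and 14.7% lower. The summed mitosis genes were at 63.9 to 109.7 CPM in these knockouts of HFCFD12W+T10W and at 69.9 to 155 CPM in those of HFCFD8W+T10D.

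Markers of several other liver cells were also called higher in knockout livers of the tamoxifen experiments. Over all genes tested, 8.60% were called higher and 8.09% lower in HFCFD2W, and 10.3% and 6.85% in HFCFD8W+T10D. In HFCFD12W+T10W the shares were 27.4% and 23.8%. The 8 macrophage markers summed to 193 to 267 CPM in controls and 223 to 353 CPM in knockouts of HFCFD2W. They summed to 519 to 973 and 863 to 1645 CPM in HFCFD8W+T10D, with 5 of 8 called higher, and to 228 to 636 and 617 to 818 CPM in HFCFD12W+T10W, with 5 higher and 1 lower. The 6 endothelial markers held 0 called higher in any experiment, with 1 lower in HFCFD8W+T10D and 2 lower in HFCFD12W+T10W. The latter count is near the 23.8% of all genes called lower there. Ptprc, the leukocyte antigen CD45, was at 12 to 15.8 and 18.9 to 60.2 CPM in HFCFD8W+T10D and at 7.84 to 18.7 and 28 to 40.4 CPM in HFCFD12W+T10W. The 8 cholangiocyte markers summed to 42 to 86.8 and 383 to 669 CPM in HFCFD2W, 49.4 to 69.2 and 159 to 367 CPM in HFCFD8W+T10D, and 47.2 to 63.5 and 756 to 1057 CPM in HFCFD12W+T10W. Called higher were 1 of 3 tested, 4 of 7 and 8 of 8 of them. The sum differed in HFCFD2W although only 3 of the 8 markers had enough reads to be tested. The median log2 fold change of the 3 tested there was 0.23, and Cldn4 was at 0 in the knockouts. The paper reports that cholangiocytes express Spp1 highly and that hepatocytes lacking CEBPA raise it. A sum holding a gene that hepatocytes also raise does not count cholangiocytes alone. The share of such genes in these sums was not tested. The 8 stellate cell markers summed to 339.6 to 589 and 536 to 1034 CPM in HFCFD8W+T10D and to 309 to 382 and 1119 to 1373 CPM in HFCFD12W+T10W. The 8 hepatocyte markers, present in all livers, summed to 106689 to 132878 and 50523 to 104895 CPM in HFCFD8W+T10D and to 93661 to 116076 and 44334 to 52962 CPM in HFCFD12W+T10W. Of these 8, 5 were called lower in HFCFD8W+T10D and 6 in HFCFD12W+T10W, with 0 higher in either. The part of these cell types in the changes of the members was not tested.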

How the data were processed

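Polyadenylated RNA from 30 mouse livers was sequenced after stranded library preparation. Per the labels and submitters' processing notes, the authors used Trimmomatic 0.36, STAR 2.5.1, Picard 1.84, RSEM 1.2.22 and DESeq2 with mm10. The authors deposited RSEM expected counts, TPM and FPKM for each sample, the same counts as 1 table, and a table of TMM-normalized signal for filtered genes. FPKM was not used. Expected counts were rounded to whole numbers (11.3% were not whole), and the count table equalled the sample files.

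Each experiment was fitted apart in edgeR 4.0.16 (R 4.3.3) with filterByExpr by genotype, TMM scaling and quasi-likelihood tests without a replicate block. A joint fit of the 6 groups gave interactions and level differences. DESeq2 1.42.0 and limma 3.58.1 (pseudocount 1 or 0.5 on the deposited normalized signal) were alternatives, beside other filters, normalizations and leaving out each mouse. On simulated counts for HFCFD8W+T10D, 77 of 103 genes changed by 1 on the log2 scale were recovered, among 11899 genes. Of the unchanged genes, 13 were called. The changed genes were drawn from all genes tested, so that this share does not give the recovery of members with few reads.

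The labels give biological replicates without naming animals, and each library is treated here as a separate mouse. The p-values weigh a difference against the spread between these samples. Genes were named by a rule: 10 listed members, the 5 called members of each class with the lowest adjusted p per experiment, and up to 4 called genes with the largest change per other list. Members and lists were chosen with earlier results of these data known.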

Additional observations from a re-analysis of the deposited data

Results flagged for a closer look

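Single livers that stood apart were sought in groups of 5, over the summed levels and the named members. Of 168 groups, 13 held such a liver, where independent and normally spread values would give about 1 in 20. These groups share mice, and some genes had few reads, so the 13 cannot be weighed against that rate. Control mouse 5 of HFCFD12W+T10W was the highest of its group in 6 of them, at 38.6 CPM for the summed mitosis genes, 3.74 CPM for Uhrf1, 7.17 CPM for Mki67, 5.55 CPM for Top2a, 2.63 CPM for Ccna2 and 1.31 CPM for Plk1. Knockout mouse 3 of that experiment was lowest for Uhrf1, at 2.7 CPM. Control mouse 4 of HFCFD8W+T10D was lowest for Ccna2 at 1.32 CPM and Plk1 at 0.102 CPM. In HFCFD2W, control mouse 5 was highest for the summed mitosis genes at 13.1 CPM, Ccne1 at 3.41 CPM and Foxm1 at 0.852 CPM, and control mouse 2 was lowest for E2f8 at 0.742 CPM.

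The genotype difference itself differed between experiments, by an interaction term in the joint edgeR fit, for 23 pairs of a named member and 2 experiments. From HFCFD2W to HFCFD8W+T10D the log2 terms were -3.41 for Mcm10 and -2.11 for E2f8. From HFCFD8W+T10D to HFCFD12W+T10W they were 1.14 for Mcm2, 1.02 for Mcm4, 1.55 for Mcm5, 1.43 for Mcm6, 2.28 for Hells and 1.72 for Cdk1. From HFCFD2W to HFCFD12W+T10W they were 2.03 for Mcm2, 1.54 for Mcm3, 1.91 for Mcm4, 2.01 for Mcm5, 2.21 for Mcm6, -2.68 for Mcm10, 0.63 for Pcna, 3.43 for Hells, 2.86 for Cdk1, 1.68 for Bub1b, 2.46 for Aurkb, 2.11 for Kif20a, 2.17 for Ccnd1, 0.98 for E2f1 and -1.99 for E2f8. Aurkb was at 3 reads or fewer in every control library of HFCFD2W, so that its term is a fitted value and no bound. The experiments differ in diet time, tamoxifen, Cre line and batch, which cannot be told apart.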

How the results depend on the processing

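The count of members called in HFCFD2W is small and moved with the setting: 1 gene was called higher, against 3 with no low-count filter or DESeq2, 2 on the genes of the authors' table, with robust fitting, with limma or in the joint fit, and 0 at an adjusted p under 0.01. Leaving out 1 mouse gave 1 to 2. The median log2 fold change of the tested mitosis genes in HFCFD2W, 1.24 over 2 genes, covered more genes in other fits and was then 0.62 without a filter, 0.62 on the genes of the authors' table, 0.64 by DESeq2, 0.19 and 0.29 by limma with pseudocounts of 1 and 0.5, and 0.62 in the joint fit, with 1.09 to 1.85 when 1 mouse was left out. In HFCFD8W+T10D, 23 members were called higher, against 35 in the joint fit and 7 at an adjusted p under 0.01, and 11 to 28 when 1 mouse was left out. In HFCFD12W+T10W the median of the replication genes was 0.90, and that of the mitosis genes 1.43, by limma with a pseudocount of 1, and the latter was 1.94 with 0.5. Leaving out 1 mouse gave 35 to 40 members higher and a mitosis median of 2.22 to 3.15, the highest without control mouse 5. Medians that take in genes at 0 to 3 reads in every control are fitted values and no bounds. At an adjusted p under 0.01 the members whose genotype difference differed between experiments numbered 2, 0 and 13 instead of 4, 6 and 21, and those that differed between the later controls 9 instead of 18. Leaving out 1 mouse gave 3 to 6, 3 to 18, 19 to 30 and 13 to 28 for these 4 counts. The cause was not tested.

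In HFCFD2W, 4 members that did not pass the test changed sign when 1 mouse was left out. The log2 fold change of Mcm2 ranged from -0.065 to 0.27, that of Mcm3 from -0.014 to 0.20 (-0.0028 without knockout mouse 4), that of Mcm4 from -0.22 to 0.0061 and that of Pcna from -0.068 to 0.067 (-0.0085 without control mouse 4). Of 1197 log2 fold changes of named members under alternatives, 1121 kept their direction and side of the threshold, 44 lost it, all in HFCFD8W+T10D, and 25 gained it. Whether replicate numbers pair the mice is not given. Over the 2000 most variable genes, deviations of control and knockout with the same number correlated from -0.36 to 0.21. The correlation was over 0.1 in 0 of 4 pairs of HFCFD2W, 1 of 5 of HFCFD8W+T10D and 2 of 5 of HFCFD12W+T10W. This check did not use the members as a set and cannot exclude pairing. With the replicate block the members called higher numbered 1, 31 and 37. Low counts of the mitosis genes limit what HFCFD2W can show.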
